A study of Mus musculus with 2 samples.

Results

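The branched-chain amino acid breakdown set holds 10 genes, taken by symbol from the 23284 genes counted in each library: the aminotransferases Bcat1 and Bcat2, the branched-chain ketoacid dehydrogenase subunits Bckdha, Bckdhb and Dbt, the kinase Bckdk of that complex, the carboxylase subunits Mccc1 and Mccc2, and the valine enzymes Hibch and Hibadh. All 10 symbols were found, and 8 were measured, that is, had a mean over both libraries of at least 1 CPM, a count scaled to the size of its library. The cells were primary hepatocytes, liver cells taken from the animal and cultured, of C57BL/6 mice. Each group was 1 library from cells pooled from 5 mice, given either control lentivirus or lentivirus with an shRNA against JMJD3, a demethylase of histone H3 lysine 27 encoded by Kdm6b. Virus was added 24 h after plating and left for 48 h, and a treatment meant to imitate fasting followed in both groups, 6 h of 10 µM forskolin (Fsk in the labels), which activates adenylyl cyclase, with glucose at 5 mM. Since both groups carried virus and forskolin, the comparison is between shRNA and control virus in stimulated cells, and the labels do not say whether the control virus carried an shRNA sequence of its own.

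Leucine, isoleucine and valine share their first steps of breakdown. An aminotransferase removes the amino group, and the mitochondrial branched-chain ketoacid dehydrogenase complex then commits the ketoacid to oxidation, after which each amino acid follows its own route to acetyl-CoA, acetoacetate or propionyl-CoA. The complex is switched off when BCKDK phosphorylates its E1 alpha subunit and switched on again by the phosphatase PPM1K, and liver is known for high activity of the complex and little aminotransferase.

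The control library held 11099562 counts and the knockdown library 18334366, a 1.65-fold difference in depth. Kdm6b had 90.7 CPM in control and 33.0 CPM in knockdown, a log2 ratio of -1.46 (exact 95% interval -1.60 to -1.31). With 1 library per group no difference below has a replicate check. Every interval covers counting error only, and a gene was called lower or higher when it differed by 1.5-fold or more with an interval that left out 1. Of the 10 hepatocyte markers sought, all were measured, with Alb at 1519 CPM in control and Apoa1 and Asgr1 at only 3.29 and 2.94 CPM.

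The sequences just before the start sites of 4 genes are shown because these genes carry the contrasts below: Hibch and Bckdhb were the members called lower, Bckdk was the only measured member with a ratio above 1, and Ppm1k, the phosphatase that opposes Bckdk, had the lowest ratio in the pathway. Each is the 250 bases before the gene's start in RefSeq on build GRCm38.p6, a different build from the mm9 of the counts, written in the gene's direction. Capitals mark 3 motifs searched on both strands: the GC box GGGCGG, the CCAAT box and TGACG, the core of a cyclic AMP response element.
Hibch, chr1:52844788-52845037, plus strand: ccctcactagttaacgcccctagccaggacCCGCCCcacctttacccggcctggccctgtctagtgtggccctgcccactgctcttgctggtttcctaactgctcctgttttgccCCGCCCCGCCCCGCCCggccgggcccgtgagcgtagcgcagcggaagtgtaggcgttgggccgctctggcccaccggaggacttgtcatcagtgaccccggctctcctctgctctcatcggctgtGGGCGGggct
Bckdhb, chr9:83924887-83925136, plus strand, the more upstream of 2 start sites: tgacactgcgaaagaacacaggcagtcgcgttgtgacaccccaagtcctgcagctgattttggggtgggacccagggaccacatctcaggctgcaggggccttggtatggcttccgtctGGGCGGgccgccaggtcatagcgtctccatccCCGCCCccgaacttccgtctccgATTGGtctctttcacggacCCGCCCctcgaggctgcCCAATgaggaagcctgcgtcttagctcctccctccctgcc
Bckdk, chr7:127903823-127904072, plus strand: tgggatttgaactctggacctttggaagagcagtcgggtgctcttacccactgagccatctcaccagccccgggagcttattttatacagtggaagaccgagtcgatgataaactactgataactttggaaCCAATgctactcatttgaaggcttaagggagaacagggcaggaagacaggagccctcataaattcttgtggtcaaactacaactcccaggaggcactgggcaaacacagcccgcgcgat
Ppm1k, chr6:57535488-57535737, minus strand: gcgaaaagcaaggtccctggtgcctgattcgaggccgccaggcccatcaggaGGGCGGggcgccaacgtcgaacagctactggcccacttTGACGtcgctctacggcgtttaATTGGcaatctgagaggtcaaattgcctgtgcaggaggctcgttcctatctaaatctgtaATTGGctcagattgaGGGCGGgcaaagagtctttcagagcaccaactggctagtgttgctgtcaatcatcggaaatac

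The Hibch window had 5 GC boxes, 3 of them in a row and sharing end bases, and no CCAAT box. Bckdhb had 3 GC boxes and 2 CCAAT boxes, Bckdk had 1 CCAAT box, and Ppm1k had 2 of each and 1 TGACG. CpG dinucleotides numbered 18 in Hibch, 15 in Bckdhb, 14 in Ppm1k and 7 in Bckdk, against a median of 6 over the 32851 windows of this length in the table. A GC box was in 32.7% of those windows, a CCAAT box in 33.8% and TGACG in 17.8%. Among the 9 members with an entry, 4 had a GC box, 6 a CCAAT box and 0 the TGACG core, and their CpG counts ran from 2 in Mccc1 to 20 in Hibadh. These matches describe the letters of the windows and are not evidence of binding.

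Transcripts of the pathway were mostly a little lower in the knockdown library. Of the 8 measured members 7 had ratios below 1, beside 50.3% of all measured genes. That lean was not particular to this pathway. Ratios below 1 were also seen in 13 of 14 genes of the tricarboxylic acid cycle and 10 of 10 hepatocyte markers. Cholangiocyte markers had 0 of 5. The rule called 2 of the 8 members (25%) lower, Hibch and Bckdhb, where 12.8% of all 12607 measured genes were called lower. With the trend of the ratio with exon length removed, as described further on, Bckdhb lost its call, and 1 of 8 (12.5%) was called lower where 11.9% of all measured genes were. None of the 8 was called higher in the unadjusted comparison, where 15.3% of all measured genes were. The median log2 ratio of the 8 was -0.42, beside -0.0039 over all measured genes, and the members ran from -0.75 to 0.11. In the authors' deposited table, which lists 9 of the 10 members, the same 2 genes had an adjusted p-value under 0.05 with a negative fold, beside 11.8% of all genes in that table. Neither the test behind those p-values nor its assumed spread is stated in the labels or the file.

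**Figure D1:**
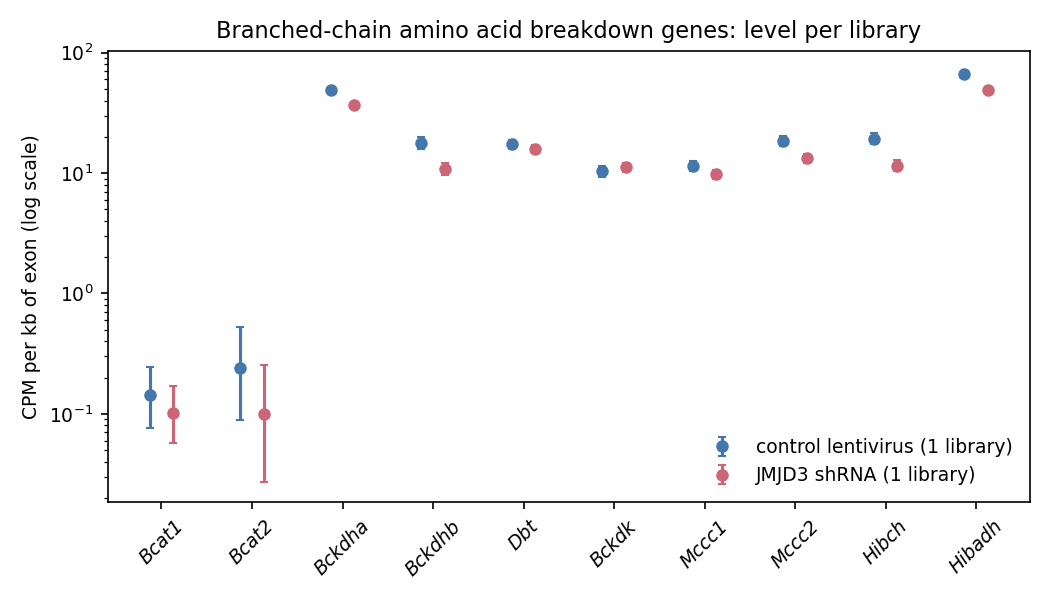
Level of each of the 10 genes in the control library (blue) and the JMJD3 shRNA library (red), as CPM per kb of exon on a log axis, with exact 95% Poisson intervals of the count. Bcat1 and Bcat2 lie below 0.3 in both libraries, the other 8 genes between 9.81 and 66.3, and Bckdk is the only one of those 8 that is higher in the shRNA library.

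The aminotransferases that open the pathway were barely detected. Bcat1, the cytosolic enzyme, had 13 counts in control and 15 in knockdown, or 1.16 and 0.828 CPM. Bcat2, the mitochondrial enzyme, had 6 and 4 counts, or 0.534 and 0.221 CPM. Their log2 ratios of -0.48 (-1.65 to 0.71) and -1.27 (-3.54 to 0.80) had intervals that include 1, so no difference was detectable at this depth. Bcat1 made up 68.4% of the counts of the pair in control (13 of 19, exact interval 43.4% to 87.4%) and 78.9% in knockdown (15 of 19, 54.4% to 93.9%). Per kb of exon the levels in control were 0.143 for Bcat1 and 0.242 for Bcat2, and the ratio of Bcat1 to Bcat2, 0.589, had an interval of 0.209 to 1.89. Bcat2 shares 50 bp of exon with another gene, and reads there would not have been assigned to either.

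The ketoacid dehydrogenase complex was far more abundant than the aminotransferases, and its subunits did not move by the same amount. Bckdha, the E1 alpha subunit that carries the regulatory phosphorylation, lies on chromosome 7 from 26414871 to 26443780 in mm9 and had 86.7 CPM in control and 65.7 CPM in knockdown. Its log2 ratio of -0.40 (-0.52 to -0.28) stayed short of the 1.5-fold rule. Bckdhb, the E1 beta subunit, on chromosome 9 from 83842388 to 84017847, fell from 24.9 to 15.2 CPM, on 280 and 275 counts in libraries of unequal depth. Its log2 ratio was -0.71 (-0.96 to -0.47), and the authors' deposited table gives it an adjusted p-value of 0.0152. With the exon-length trend removed it was at -0.53 and not called. Dbt, the E2 core that passes the acyl group to coenzyme A, on chromosome 3 from 116215997 to 116252899, had 56.9 and 52.4 CPM, a log2 ratio of -0.12 (-0.27 to 0.03) whose interval includes 1. Dld, the E3 subunit shared with other dehydrogenase complexes, was at -0.19 (-0.28 to -0.10), with 163 and 143 CPM. Dbt was higher relative to Bckdha within the libraries, from 0.354 to 0.430 by counts per kb, a 1.21-fold change (1.06 to 1.39), or 0.28 on the log2 scale. With the exon-length trend removed that change was 0.10 with an interval of -0.09 to 0.29, which includes no difference.

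The kinase and the phosphatase of the complex stood far apart. Bckdk, on chromosome 7 from 135047587 to 135053178, had 29.5 CPM in control and 31.9 CPM in knockdown, a log2 ratio of 0.11 (-0.08 to 0.31) that stayed between 0.06 and 0.13 under the other scalings. Ppm1k, on chromosome 6 from 57456496 to 57485420, had 35.2 and 11.8 CPM, on 396 and 213 counts, and was called lower at -1.58 (-1.83 to -1.34). The authors' deposited table gives Ppm1k an adjusted p-value of 1.37e-09 and Bckdk one of 0.782. Ppm1k had 0.615 times as many counts per kb as Bckdk in control (0.530 to 0.714) and 0.190 times in knockdown (0.161 to 0.222). That within-library ratio changed by 0.309-fold (exact conditional interval 0.248 to 0.385).

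Ratios between members inside 1 library do not depend on how the libraries are scaled. Bckdk per Bckdha was 0.211 in control and 0.301 in knockdown by counts per kb, a change on the log2 scale of 0.51 (0.28 to 0.75). Against Bckdhb the change was 0.83 (0.51 to 1.15), and against Dbt it was 0.23 with an interval of -0.01 to 0.48. With the exon-length trend removed these changes were 0.38 (0.15 to 0.62), 0.64 (0.32 to 0.96) and 0.28 (0.03 to 0.53). The kinase transcript was thus higher relative to both E1 subunits on either scale, and relative to E2 its interval excluded no difference only after the trend was removed. Dbt per Bckdhb went from 0.971 to 1.47, a 1.51-fold change (1.24 to 1.84), and Bckdhb per Bckdha from 0.365 to 0.293, a 0.805-fold change (0.665 to 0.974). On the log2 scale these were changes of 0.59 and -0.31, and with the trend removed they were 0.36 (0.07 to 0.65) and -0.26 (-0.53 to 0.02), the latter with an interval that includes no difference.

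**Figure D2:**
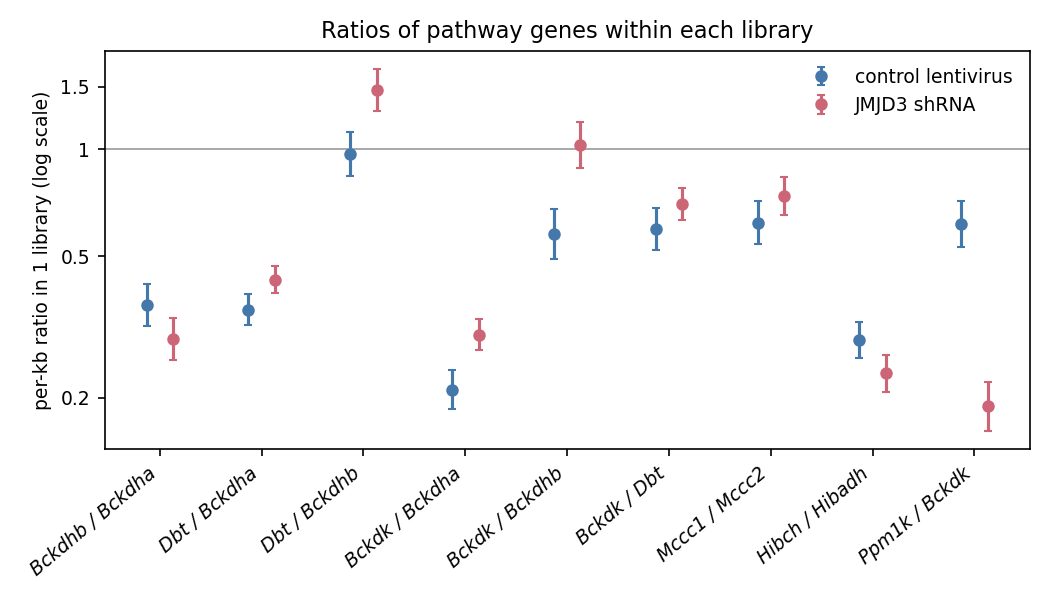
Ratio of counts per kb between pathway genes within the control library (blue) and within the JMJD3 shRNA library (red), on a log axis with exact 95% intervals. Ppm1k per Bckdk falls from 0.615 to 0.190, while the ratios of Bckdk to the E1 subunits are higher in the shRNA library.

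On the leucine branch, both subunits of methylcrotonyl-CoA carboxylase, the biotin enzyme of that route, had ratios below 1 and neither was called. Mccc1, the biotin-carrying alpha subunit, on chromosome 3 from 35858231 to 35899600, had 34.2 CPM in control and 29.2 CPM in knockdown (log2 -0.23, -0.42 to -0.03). Mccc2, the beta subunit, on chromosome 13 from 100718487 to 100785594, had 39.2 and 28.2 CPM (log2 -0.48, -0.66 to -0.29). The per-kb ratio of Mccc1 to Mccc2 was 0.621 in control and 0.740 in knockdown, and its change of 0.25 on the log2 scale had an interval of -0.02 to 0.52. Mccc1 shares 198 bp of exon, 6.65% of its length, with another gene, so its count is uncertain there.

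On the valine branch, Hibch had the lowest ratio of the measured members. This gene encodes the hydrolase that frees 3-hydroxyisobutyrate from coenzyme A, and lies on chromosome 1 from 52901890 to 52977704. It fell from 32.9 to 19.6 CPM, on 370 and 354 counts, a log2 ratio of -0.75 (-0.97 to -0.54). The authors' deposited table gives Hibch an adjusted p-value of 0.00715. Hibadh, the dehydrogenase that takes the next step, on chromosome 6 from 52496224 to 52590294, was the most abundant member per kb and had 115 and 84.8 CPM. Its log2 ratio was -0.44 (-0.55 to -0.33), short of the rule, with an adjusted p-value of 0.112 in the authors' deposited table. Hibch per Hibadh was 0.291 in control and 0.235 in knockdown, a 0.806-fold change (0.682 to 0.952).

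The order of levels per kb of exon was similar at its ends and differed in the middle. In control Hibadh stood at 66.3 CPM per kb and Bckdha at 48.9, each apart from its lower neighbour by more than counting error. Hibch at 19.3, Mccc2 at 18.5, Bckdhb at 17.8 and Dbt at 17.3 followed, and no neighbours among these 4 differed beyond their interval. Mccc1 at 11.5 and Bckdk at 10.3 came next and did not differ beyond theirs. In knockdown Hibadh at 48.9 and Bckdha at 37.0 again led, followed by Dbt at 15.9, Mccc2 at 13.3, Hibch at 11.5, Bckdk at 11.2, Bckdhb at 10.9 and Mccc1 at 9.81. Dbt moved from the rank of 6 to 3 and Bckdhb from 5 to 7, and the last 4 of these genes formed a run whose neighbours did not differ beyond counting error. In control 90.7% of all measured genes had a lower per-kb level than Hibadh and 46.6% a lower one than Bckdk.

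The other genes of the pathway, 24 sought and 23 measured, leaned the same way. Of the 23, 6 (26.1%) were called lower and 1 (4.35%) higher, where 12.8% and 15.3% of all measured genes were. Ratios below 1 were seen in 20 of the 23 (87.0%), beside 50.3% of all measured genes, and the median log2 ratio was -0.34. On the leucine branch Ivd, isovaleryl-CoA dehydrogenase, was at -0.84 (-1.02 to -0.66) with 47.2 and 26.3 CPM, and Auh, methylglutaconyl-CoA hydratase, at -0.84 (-1.07 to -0.61) with 29.9 and 16.7 CPM. With Mccc1 and Mccc2, the 4 leucine genes of the lists were all below 1 and 2 were called lower. On the valine branch 1 of 5 was called lower, Hibch itself, and all 5 were below 1. On the isoleucine branch 0 of 3 were called, and the 3 ran from -0.43 in Hsd17b10, the most abundant of them per kb, to -0.07 in Acat1. With the exon-length trend removed Hsd17b10 was at -0.12 with an interval of -0.26 to 0.02, which includes no difference.

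Beyond the branches, the propionyl-CoA route that isoleucine and valine share had 1 of 6 called lower, where 12.8% of all measured genes were. The gene called was Mmaa, a chaperone of the cobalamin enzyme methylmalonyl-CoA mutase, at -0.60 (-1.02 to -0.17) on 91 and 97 counts. It sat next to the threshold, at -0.58 with DESeq2 size factors, where it was not called. With counts halved its interval was -1.21 to 0.02, which includes no difference, and it was not called. The authors' deposited table gives Mmaa an adjusted p-value of 0.130. The biotin genes split: Btd, biotinidase, was called lower at -0.76 (-0.91 to -0.60), and Hlcs, which attaches biotin to the carboxylases, had 29.6 and 36.7 CPM (log2 0.31, 0.12 to 0.50) and was not called. With the exon-length trend removed Btd was at -0.65 and still called, and Hlcs was at 0.14.

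Carriers of these amino acids moved in opposite directions. Slc7a5, the light chain of the large neutral amino acid exchanger at the plasma membrane, was called higher, at 25.0 CPM in control and 44.7 CPM in knockdown (log2 0.84, 0.64 to 1.04). Its partner Slc3a2, the most abundant gene of the list per kb, had 351 and 338 CPM (log2 -0.05, -0.11 to 0.00). Slc43a2, a uniporter of large neutral amino acids, was called lower, at 95.7 and 45.7 CPM (log2 -1.06, -1.20 to -0.93). Slc25a44, the mitochondrial carrier of branched-chain amino acids, was at -0.23 (-0.35 to -0.10) and not called.

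**Figure D3:**
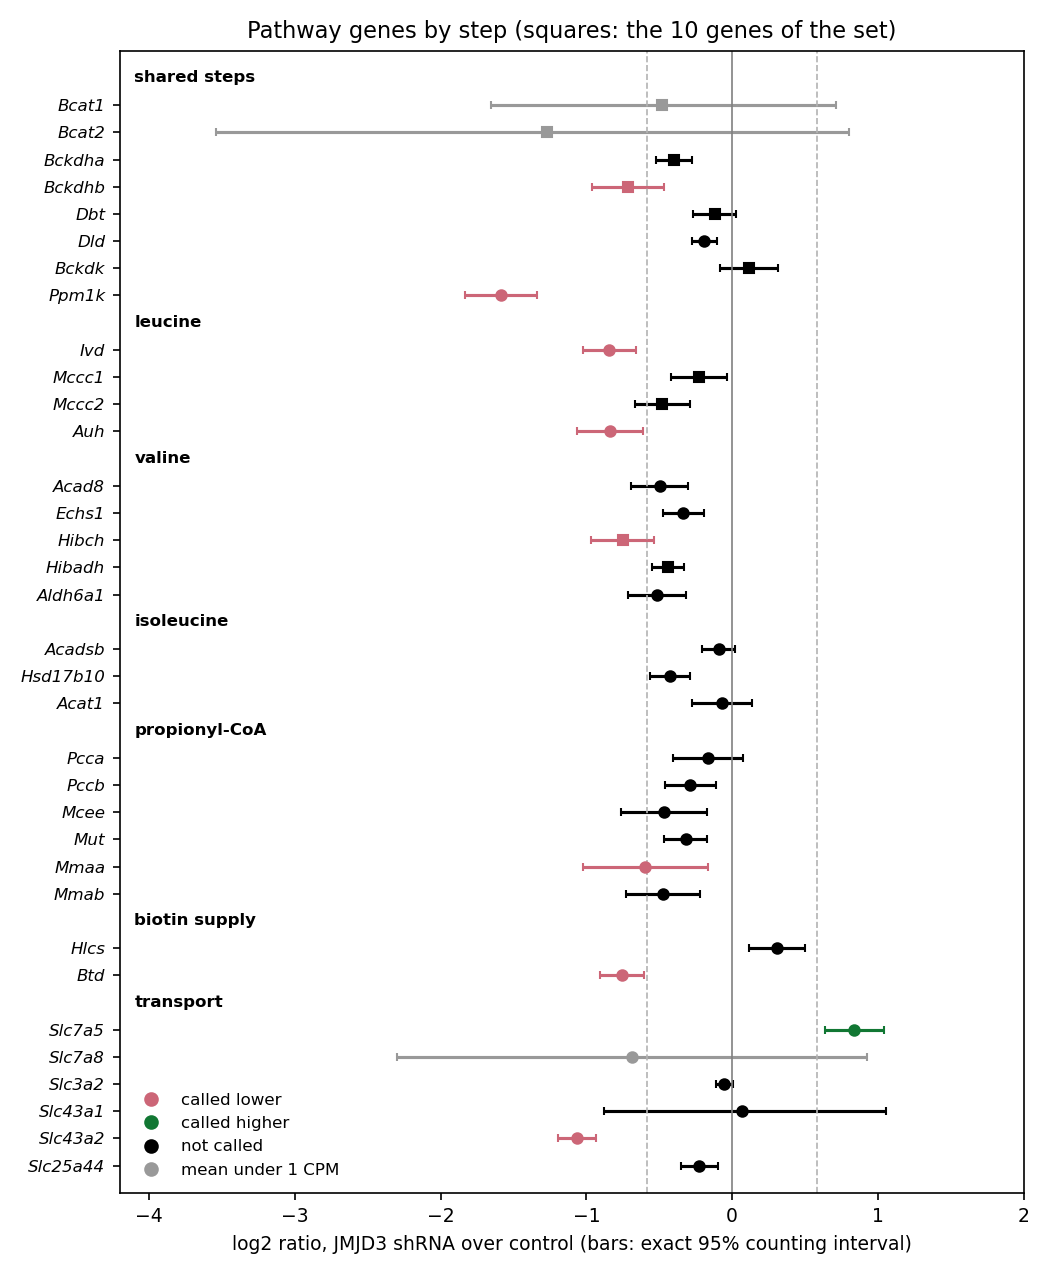
Log2 ratio of JMJD3 shRNA over control for the 10 genes of the set (squares) and the 24 other pathway genes (circles), grouped by step, with exact 95% counting intervals, and dashed lines at 1.5-fold. Of the 31 measured pathway genes 27 lie below 0, beside 50.3% of all measured genes. Ppm1k is lowest at -1.58 and Slc7a5 highest at 0.84.

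Exon length moved with these ratios. Over all measured genes the log2 ratio rose with summed exon length, and the 5 measured members from 1398 to 2124 bp long had ratios of -0.40 or lower while the 3 from 2857 to 3292 bp had ratios of -0.23 or higher. With the trend over all genes removed, the median of the 8 members was -0.29, Hibch stayed called at -0.62 and Bckdhb was no longer called at -0.53. Ppm1k, 5560 bp long, was at -1.80 on that scale. Bckdk was at 0.10, so the distance between the kinase and the phosphatase was larger after the trend was removed.

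**Figure D4:**
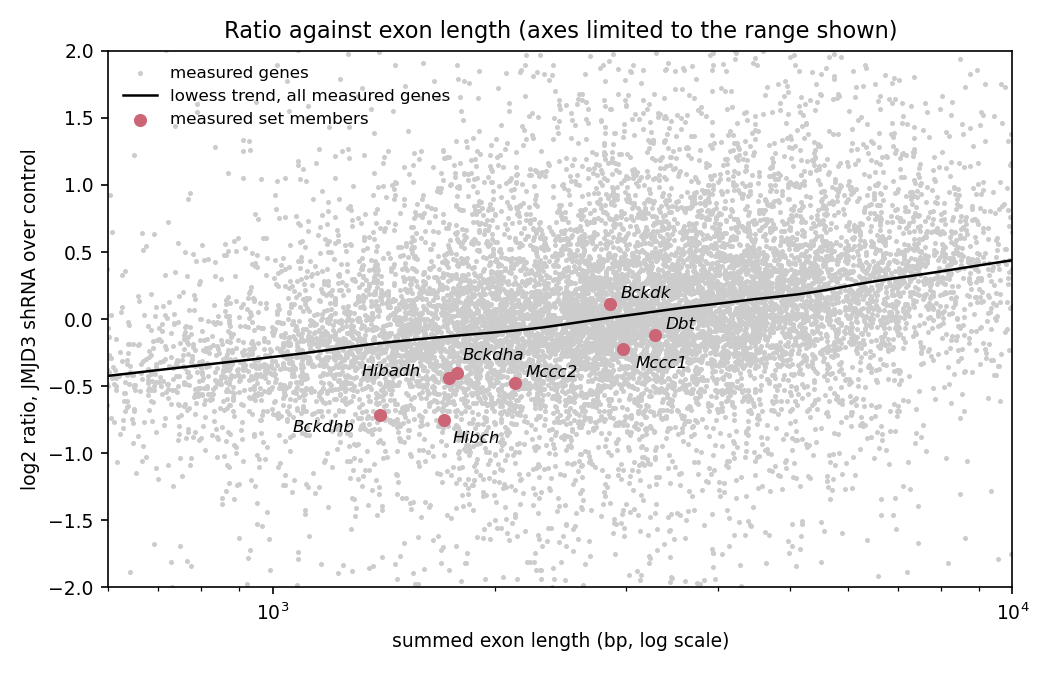
Log2 ratio of JMJD3 shRNA over control against summed exon length on a log axis for all measured genes in the plotted range (grey), the lowess trend over all measured genes (black) and the 8 measured members (red). Of the 8 members 7 lie below the trend, and Bckdk lies above it.

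Markers of cell identity also differed between the libraries. Of 10 hepatocyte markers 7 were called lower, where 12.8% of all measured genes were, and their median log2 ratio was -0.95. Their summed level was 10752 CPM in control and 6326 CPM in knockdown, of which Fgb made up 3987 and 846 CPM. Cps1 was lowest at -5.85 and Trf highest at -0.01. Cholangiocyte markers had 3 of 5 called higher, where 15.3% of all measured genes were, and 0 lower. Their median was 0.59, from Epcam at 0.01 to Krt7 at 1.65. Their summed level was 7974 and 8283 CPM, of which Spp1 made up 7795 and 8011 CPM. Macrophage markers had 0 of 5 called and sums of 151 and 128 CPM, from Cd68 at -0.31 to Emr1 at 0.38, with Clec4f at 0 counts in both. Stellate and fibroblast markers had 2 of 7 called lower, Reln lowest at -3.74 and Des highest at 0.79, with a median of -0.23 and sums of 233 and 223 CPM. Endothelial markers had 2 of 6 called lower, Stab2 lowest at -1.03 and Kdr highest at 0.62, with a median of -0.21 and sums of 50.8 and 44.2 CPM. Itgam, at 0.27, was the 1 measured marker of 6 for blood and lymphoid cells, with sums of 3.03 and 2.71 CPM. Cd3e and Hbb-b1 had 0 counts in both. Hbb-b1 shares 606 bp of exon, 96.8% of its length, with another gene. Reads there would not have been assigned to either, so its count cannot show whether its transcript was absent. The part of these differences in the pathway's ratios was not tested, and fewer hepatocytes and less RNA per hepatocyte cannot be told apart in such bulk libraries.

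Other routes of amino acid breakdown had lower medians, given side by side because no replicates allow a test of the difference. Among all measured genes 12.8% were called lower. Phenylalanine and tyrosine enzymes had 3 of 6 called lower and a median of -1.23, from Tat at -4.19 to Fah at 0.05. Tryptophan enzymes had 3 of 6 called lower and a median of -0.61, from Tdo2 at -4.06 to Afmid at 0.57. Enzymes of serine, glycine and histidine breakdown had 7 of 9 called lower and a median of -1.07, from Hal at -6.15 to Gcsh at 0.29. The tricarboxylic acid cycle, which like the branched-chain pathway lies in mitochondria, had 2 of 14 (14.3%) called lower, near the share of all measured genes. Its median was -0.36, from Fh1 at -2.66 to Cs at 0.12. Ratios below 1 were seen in 5 of 6, 5 of 6, 8 of 9 and 13 of 14 genes of these lists in turn. Among the branched-chain members the count was 7 of 8, and 50.3% of all measured genes had such ratios. None of these lists had a gene called higher, where 15.3% of all measured genes were. The 8 measured branched-chain members, between -0.75 and 0.11, spanned a narrower range than any of these lists in the pair of libraries. The other measured genes of the pathway ran wider, from -1.58 in Ppm1k to 0.84 in Slc7a5. A range rests on its extreme genes, such as Fh1 in the cycle, so the narrower span describes those 8 genes and not the pathway.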

How the data were processed

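Messenger RNA was sequenced as 100 bp paired ends in 2 libraries, 1 per group, and groups were taken from the sample titles. The deposited counts are whole-number reads per gene, made with featureCounts 1.4.6-p4 on mm9 gene models without use of strand, per the file headers. No option for pairs was recorded, so each read of a pair may count once. Per the submitters' processing notes, the tools also included STAR 2.5.3a, Trimmomatic 0.36 and edgeR. The authors' deposited table gives a log2 fold change, an average log2 CPM, p-values and adjusted p-values for 12838 genes, with no statement of the test. Its fold had the sign of knockdown over control in 11807 of 11807 genes compared, those with a log2 ratio of the counts beyond 0.05.

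Counts were scaled by library totals and TMM factors (edgeR 4.0.16, R 4.3.3), with DESeq2 1.42.0 size factors as an alternative. Log2 ratios used no pseudocount, and intervals were exact conditional binomial (Clopper-Pearson) at 95%, or exact Poisson for a level. They cover counting error only, and double counting of read pairs or PCR copies would make them too narrow. Without replicates no test was run, and the rule of size (1.5-fold, interval excluding 1, mean of at least 1 CPM) stood in its place. The procedure was tested on simulated data. All members were named, as were called genes and the 2 most abundant per kb of the pathway and related-complex lists, and the highest and lowest of every other list. Other genes of the pathway and related-complex lists were named after their values were seen. Some genes of these routes are not reported here. Members and lists were chosen with earlier results of these data known. Promoters came from RefSeq tables (GRCm38.p6), where 9 of 10 members matched and Dbt did not.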

Additional observations from a re-analysis of the deposited data

How the results depend on the processing

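The median log2 ratio of the 8 measured members lay between -0.47 (upper quartile factors) and -0.29 (exon-length trend removed) over the alternatives tried. Another scaling moved the median of all genes by less than 0.1 and left 2 members called lower. Under the 2-fold rule 0 of 8 members and 2 of 23 other pathway genes were called lower, where 6.19% of all measured genes were. From both lists 0 were called higher under that rule, where 7.35% of all measured genes were. With the fold rule lowered to 0.32 on the log2 scale 5 members and 12 others were called lower, where 23.0% of all measured genes were. With the exon-length trend removed 1 member of 8 (12.5%) was called lower, beside 11.9% of all measured genes, so the members' share of calls was then near that of all genes. The same adjustment of the ratios between members was chosen after the data were seen. The change of Bckdk relative to Bckdha was 0.51 on the log2 scale, and it was 0.83 relative to Bckdhb and 0.23 relative to Dbt. With the exon-length trend removed 4 of 24 named genes left their counting interval, and 0 of the called genes changed sign under any alternative. The other alternatives could not show such moves gene by gene. Filters, fold rules and halved counts leave a ratio unchanged, and another scaling shifts every ratio alike. Halved counts did widen the intervals, and those of Mmaa, Mccc1 and Dlst then included no difference. With them 2 of 8 members and 5 of 23 other pathway genes were called lower, where 11.6% of all measured genes were. No paired analysis was possible because each group has 1 library. Depth limits Bcat1 and Bcat2, with at most 15 counts in a library.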

Other observations

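Related ketoacid dehydrogenase complexes, built on the same plan as the branched-chain complex, had 3 of 14 genes called lower and 1 higher. Among all measured genes 12.8% were called lower and 15.3% higher. The median log2 ratio of the 14 was -0.12. Among their subunits Pdhb, the E1 beta subunit of pyruvate dehydrogenase, was called lower at -0.69 (-0.80 to -0.58). Pdha1, the E1 alpha subunit of that enzyme, was at 0.40 (0.30 to 0.51) and not called, where Bckdha was at -0.40, and Pdha1 shares 603 bp of exon with another gene. Dlst, the E2 subunit of oxoglutarate dehydrogenase, had 182 CPM in control and 196 CPM in knockdown (log2 0.11, 0.03 to 0.19). Pdhb was at -0.53 and no longer called with the exon-length trend removed. Of the kinases related to Bckdk, Pdk2 was called lower at -0.82 (-1.04 to -0.61) and Pdk4 at -0.64 (-1.02 to -0.26), for which the authors' deposited table gives an adjusted p-value of 0.0868. Pdk1 at -0.12 and Pdk3 at -0.13 were not called, with intervals that include no difference, as was the case for Bckdk at 0.11. Pdpr, a regulatory subunit of the pyruvate dehydrogenase phosphatase, was called higher at 0.93 (0.63 to 1.24). The catalytic phosphatases Pdp1 at 0.10 (-0.22 to 0.42) and Pdp2 at -0.11 (-0.41 to 0.20) were not called, where Ppm1k stood at -1.58. Pdpr shares 185 bp of exon with another gene, and its count is uncertain there.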
